A study of Mus musculus with 32 samples.

Results

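The Hox genes were taken as every gene whose annotated symbol is Hoxa, Hoxb, Hoxc or Hoxd followed by a number. Of 18999 genes with a value in kidneys of C57BL/6 mice, 37 met this rule, and they were read by 57 of the 45220 probes. The Hoxa cluster on chromosome 6 and the Hoxb cluster on chromosome 11 gave 10 genes each, the Hoxc cluster on chromosome 15 gave 8 and the Hoxd cluster on chromosome 2 gave 9. Total RNA of whole kidney was measured on 32 two-colour arrays at 10 stages. The earliest was day 19 of gestation (E19), and the rest fell on days 1, 3, 5, 7, 10, 14, 21, 28 and 35 after birth (P01 to P35). P03 and P35 had 4 arrays and the other 8 stages had 3. Kidney RNA carried Cy5 and the Mouse universal reference RNA that shared each array carried Cy3, with no dye swap named. A protocol text common to the arrays describes ligation of the ureter and sham surgery, but every kidney is called normal by its source name, which decided the grouping here. The labels name the strain and no transgene or drug. They do not say how many mice gave each RNA, so p-values measure only the spread between arrays, which may be technical.

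Hox genes encode homeodomain transcription factors, and their order along each cluster follows the order in which they are used from the head to the tail of the embryo. Genes with the same number in different clusters are paralogues, which share sequence and often cover for each other. In the developing kidney the group 11 paralogues act in the nephron progenitors, where Hoxa11 and Hoxd11 are needed together for branching and nephron formation and work with Eya1 and Pax2 on Six2 and Gdnf. The group 10 paralogues act largely in the stroma, and the Hoxb7 promoter is widely used to drive transgenes in the ureteric bud and its derivative, the collecting duct. In RNA from a whole organ, fewer cells of a type and less RNA per cell cannot be told apart.

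The promoters of the genes with the largest falls in these kidneys are shown, those of Hoxa11, Hoxd11 and Hoxd10. Each runs from 250 bases before to 50 bases after a start in RefSeq (build GRCm38.p6), 5′ to 3′ on the gene's strand, with capitals for homeodomain motifs. Hoxa11 lies at chr6:52245761-52246060 on the minus strand. The starts listed for Hoxd11 lie at chr2:74679308-74679607 and chr2:74682073-74682372, and that of Hoxd10 at chr2:74691641-74691940, all on the plus strand.
Hoxa11: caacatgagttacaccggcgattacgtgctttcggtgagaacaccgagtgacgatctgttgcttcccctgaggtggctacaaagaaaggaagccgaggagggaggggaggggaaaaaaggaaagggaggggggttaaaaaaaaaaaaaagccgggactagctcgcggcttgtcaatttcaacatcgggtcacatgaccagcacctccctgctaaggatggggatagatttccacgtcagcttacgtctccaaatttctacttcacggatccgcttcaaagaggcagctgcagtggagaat
Hoxd11, upstream start: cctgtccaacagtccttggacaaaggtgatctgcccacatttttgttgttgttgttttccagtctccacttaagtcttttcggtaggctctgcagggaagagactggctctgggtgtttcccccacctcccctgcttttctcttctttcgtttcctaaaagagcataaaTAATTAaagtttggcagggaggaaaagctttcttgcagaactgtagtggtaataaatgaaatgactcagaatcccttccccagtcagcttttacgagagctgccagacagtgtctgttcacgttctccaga
Hoxd11, downstream start: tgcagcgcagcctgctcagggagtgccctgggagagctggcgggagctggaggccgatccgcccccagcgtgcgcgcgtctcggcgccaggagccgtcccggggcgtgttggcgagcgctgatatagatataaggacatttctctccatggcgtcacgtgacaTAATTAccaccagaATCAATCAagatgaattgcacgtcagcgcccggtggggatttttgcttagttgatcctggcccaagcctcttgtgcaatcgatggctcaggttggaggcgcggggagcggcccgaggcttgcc
Hoxd10: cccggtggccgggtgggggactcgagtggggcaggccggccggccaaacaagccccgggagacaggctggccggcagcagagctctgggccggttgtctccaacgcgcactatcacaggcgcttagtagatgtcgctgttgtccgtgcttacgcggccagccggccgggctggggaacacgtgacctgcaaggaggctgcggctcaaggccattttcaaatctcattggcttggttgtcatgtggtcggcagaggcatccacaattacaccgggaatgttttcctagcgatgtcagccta

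Motifs were sought on both strands: TGACAG, the site of the cofactors Meis and Pknox, TGATNNAT, a joint site of Pbx and Hox proteins, and TAATTA, a core bound by many homeodomains. No stretches with different motifs overlapped in the promoters shown. TAATTA was found in both Hoxd11 promoters, and TGATNNAT (on the minus strand, as ATCAATCA) in the downstream one. Neither the Hoxa11 nor the Hoxd10 window held any of the 3. RefSeq promoters were at hand for 22 of the 37 Hox genes, as 24 windows. TGACAG was in 2 of them, TGATNNAT in 4 and TAATTA in 2, against 19.2%, 8.85% and 5.29% of all 32851 windows.

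The level of each gene is given as the log2 ratio of kidney over reference RNA, so that 0 means equal signal. A change is the difference of such ratios between stages. Exact zeros in the deposited table were read as not measured. Of the 37 genes, 32 were measured on all 32 arrays. The exceptions were Hoxa13, Hoxb1, Hoxd1, Hoxd12 and Hoxd13. Kidney signal was above the reference on every measured array for 20 of the 37 genes and below it for 2, Hoxb13 and Hoxc13, tail-end genes known from prostate, colon and skin. Hoxb13 ranged between -5.20 and -2.77 and Hoxc13 between -4.43 and -1.67 over the 32 arrays. Markers of the proximal tubule, the most abundant kidney epithelium, had array medians of 5.50 to 6.29 at P35 and 4.29 to 4.94 at E19. Their median was thus above the reference on every P35 and E19 array.

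The arrays fall into 3 runs of consecutive image numbers in the labels, and expression differed between them. With stage in the model, 55.1% of 16336 genes differed between image runs 1 and 3 (limma, adjusted p under 0.05), as did 14 of 33 Hox genes. E19 had 1 array from each run, whereas P28 and P35 had none from run 1. P07 had none from run 3, and P01, P03 and P21 had none from run 2. Single Hox genes whose call in a stage against stage comparison changes with image run as a block are therefore given both ways. Between 33 and 37 Hox genes were measured on each array.

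Across the whole span, P35 against E19, most Hox calls were falls, led by Hoxa11, Hoxd11 and Hoxd10. Of 36 tested genes 12 were lower and 2 higher at P35 (limma on all 32 arrays, Benjamini-Hochberg adjusted p under 0.05 over all genes). The background was 19.0% of 17118 genes lower and 21.2% higher. The median change of the Hox genes was -0.49, against 0.06 for all genes tested, and 27 of the 36 changes were negative. In 18 of the 36 the P35 and E19 arrays did not overlap, beside 43.1% of all genes tested, so that this count lies near the background. By cluster, 4 of 10 Hoxa, 3 of 10 Hoxb, 2 of 8 Hoxc and 3 of 8 Hoxd genes were lower. With image run as a block the counts were 15 lower and 1 higher, and 23.0% of all genes were then lower and 26.6% higher.

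**Figure D1:**
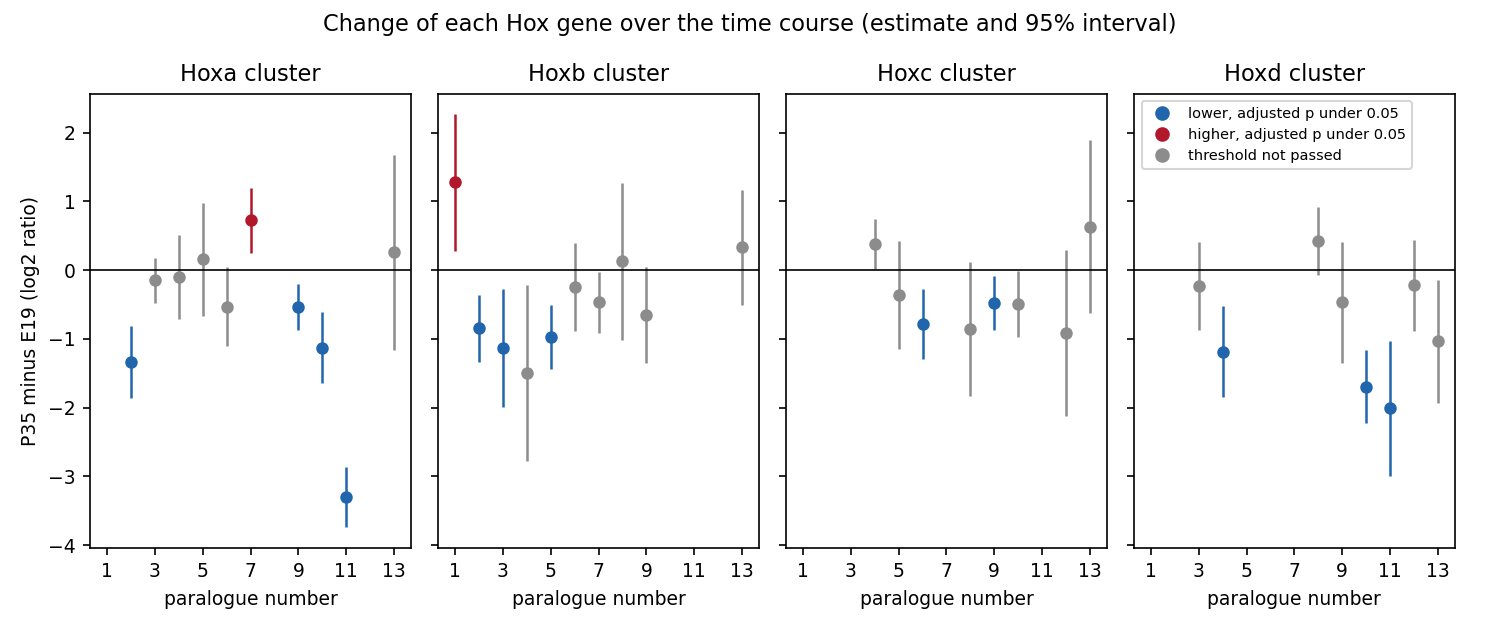
Change of each Hox gene between P35 and E19 (vertical axis, log2 ratio at P35 minus E19) by paralogue number (horizontal axis) in the 4 clusters; points are limma estimates and bars 95% intervals. Hoxa11 at -3.30, Hoxd11 at -2.01 and Hoxd10 at -1.69 lie lowest, and blue and red points passed the threshold.

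The group 11 genes had the largest falls. Hoxa11 had log2 ratios of -0.44, -0.43, -1.12 and -0.55 on the P35 arrays, against 2.59, 2.51 and 2.88 on the E19 arrays. Kidney thus had less Hoxa11 signal than the reference on all 4 P35 arrays and more on all 3 E19 arrays. The change was -3.30 (95% interval -3.74 to -2.86, limma adjusted p = 8.14e-12), a 9.84-fold fall. Its paralogue Hoxd11 had 2.78, 2.93, 0.96 and 1.30 at P35, against 4.21, 4.17 and 3.63 at E19. No P35 array reached the lowest E19 array, though arrays 3 and 4 of P35 lay well below the other P35 arrays. The change was -2.01 ± 0.48 (SE, limma adjusted p = 0.0013), and the ratio stayed above the reference.

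The group 10 genes all had negative changes and 2 of 3 passed the test. Hoxd10, the neighbour of Hoxd11, had 4.60, 4.26, 4.41 and 3.69 at P35, against 5.96, 5.77 and 6.07 at E19. The P35 arrays all lay below the E19 arrays, and the change was -1.69 ± 0.26 (SE, limma adjusted p = 7.6e-06). Hoxa10, which acts in stroma and also in the uterus, had 2.32, 1.79, 1.66 and 1.85 at P35, against 2.83, 2.94 and 3.33 at E19. Its groups did not overlap either (-1.13 ± 0.25, adjusted p = 0.000667). Hoxc10, known from the hind limb and lumbar cord, changed by -0.50 ± 0.23 with overlapping groups and did not pass (adjusted p = 0.095).

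In group 9 all 4 changes were negative, between -0.65 and -0.47. Hoxa9, a gene best known from blood progenitors, fell by 0.53 on the log2 scale (adjusted p = 0.0094), with P35 arrays between 1.37 and 1.90, against 2.00 to 2.18 at E19. Hoxc9 changed by -0.48 (adjusted p = 0.047), with -1.07 to -0.50 at P35, against -0.28 to -0.25 at E19. That call was lost when any 1 of 19 arrays was left out, the adjusted p then reaching 0.154. Hoxb9 missed the threshold at -0.65 (adjusted p = 0.135), and with image run as a block its change was -0.91 (adjusted p = 0.0064). Hoxd9 changed by -0.47 (adjusted p = 0.412).

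Groups 12 and 13, which pattern the tail end, hindgut and genital tract, gave no call. Hoxd13 was measured on 9 arrays only. It had 0.49 and 0.53 on the measured P35 arrays, against 1.28 and 1.81 at E19, and the change of -1.03 did not pass (adjusted p = 0.069). The other group 13 genes had positive changes of 0.26 (Hoxa13), 0.33 (Hoxb13) and 0.63 (Hoxc13), none passing. Hoxc12 and Hoxd12 changed by -0.92 and -0.22, and Hoxc12 varied between -3.56 and -0.69 among the P35 arrays and between -2.27 and -0.04 among the E19 arrays.

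Group 7 held the one well-measured Hox gene that rose. Hoxa7, which patterns the thoracic trunk, had 2.71, 2.42, 2.04 and 2.23 at P35, against 1.74, 1.31 and 1.83 at E19. Every P35 array exceeded every E19 array, and the change was 0.72 ± 0.23 (SE, limma adjusted p = 0.0134). With image run as a block it was 0.90 (adjusted p = 1.32e-05), but after quantile normalization it was 0.41 and did not pass (adjusted p = 0.159). Without array 2 of E19 the adjusted p was 0.0873. Its paralogue Hoxb7 had 2.25, 2.01, 1.77 and 2.33 at P35, against 2.36, 2.83 and 2.49 at E19. The groups were apart by a narrow margin, and the change of -0.47 did not pass (adjusted p = 0.088). With image run as a block it was -0.56 and passed (0.0093). Whether the changes of the 2 paralogues differ was not tested.

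Among groups 4 to 6 and 8, at least 1 gene fell in all but the last. Hoxd4, a hindbrain gene, had 3.71, 3.31, 3.73 and 3.16 at P35, against 4.85, 4.31 and 4.82 at E19 (-1.18 ± 0.32 SE, adjusted p = 0.0040). Hoxb5, a gene of gut and lung mesenchyme, had 2.17, 2.05, 2.46 and 1.98, against 3.18, 3.08 and 3.15 (-0.97 ± 0.23, adjusted p = 0.0012). Hoxc6, a gene of the thoracic trunk, had -0.04, -0.26, 0.28 and -0.66, against 0.30, 0.83 and 0.71 (-0.78 ± 0.25, adjusted p = 0.0134). The P35 arrays lay below the E19 arrays in each of the 3, though for Hoxc6 by 0.28 against 0.30 at the nearest. The Hoxc6 call was lost without E19 array 2 or P35 array 4 (largest adjusted p 0.0643).

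Several members of these groups went the other way without passing. Hoxc4, a cervical gene, had 0.70, 0.57, 1.51 and 0.85 at P35, against 0.48, 0.54 and 0.56 at E19. The groups were apart, but P35 array 3 was well above the rest and the change of 0.38 did not pass (adjusted p = 0.087). Hoxd8 changed by 0.42 (2.51, 2.80, 2.76 and 2.05 at P35, against 1.90, 2.12 and 2.30 at E19, adjusted p = 0.166). Hoxa5 and Hoxb8 changed by 0.15 and 0.13 with overlapping groups. Both changes were negative with the block, at -0.23 and -0.17. Hoxa4, Hoxa6, Hoxb6, Hoxc5 and Hoxc8 changed by -0.11, -0.53, -0.25, -0.36 and -0.85, and none passed.

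At the head end of the clusters, both group 2 genes fell. Hoxa2, a hindbrain and second pharyngeal arch regulator, had -1.23, -0.37, 0.02 and -0.96 at P35, against 0.61, 0.63 and 0.88 at E19. Its groups did not overlap (-1.34 ± 0.26 SE, adjusted p = 0.000131). Hoxb2, its paralogue, had 1.46, 1.82, 1.60 and 1.32, against 2.13, 2.29 and 2.76 (-0.85 ± 0.24, adjusted p = 0.0052), again with no overlap. Hoxb3 had 0.91, 0.51, 1.17 and -0.23 at P35, against 2.07, 1.13 and 1.95 at E19. These groups overlapped, the change was -1.13 ± 0.42 (adjusted p = 0.032), and the call was lost when E19 array 1 or 3 or P35 array 2 or 4 was left out (largest adjusted p 0.120). Hoxa3 and Hoxd3 changed by -0.15 and -0.23 and did not pass.

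The group 1 values were thin. Hoxb1, a gene of the early hindbrain, was measured on 13 of 32 arrays. It had 0.28 and 0.63 on the measured P35 arrays, against -0.82 and -0.81 on the measured E19 arrays, a change of 1.28 (adjusted p = 0.0452). It is read by 10 probes with the same accession, each measured on 5 to 13 arrays, and 2 others could be tested, with changes of 1.26 and -0.49 that did not pass. With image run as a block the change was 0.53 (adjusted p = 0.464), and as a plain mean of the measured probes 0.14 (adjusted p = 0.867). Hoxd1 was measured on all arrays between E19 and P05, with stage means between 1.95 and 2.54, and on 1 of 4 arrays at P35, so it was not tested in this comparison. Its measured values reached 4.12 at P03 and were -1.24 and 1.91 at P21.

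**Figure D2:**
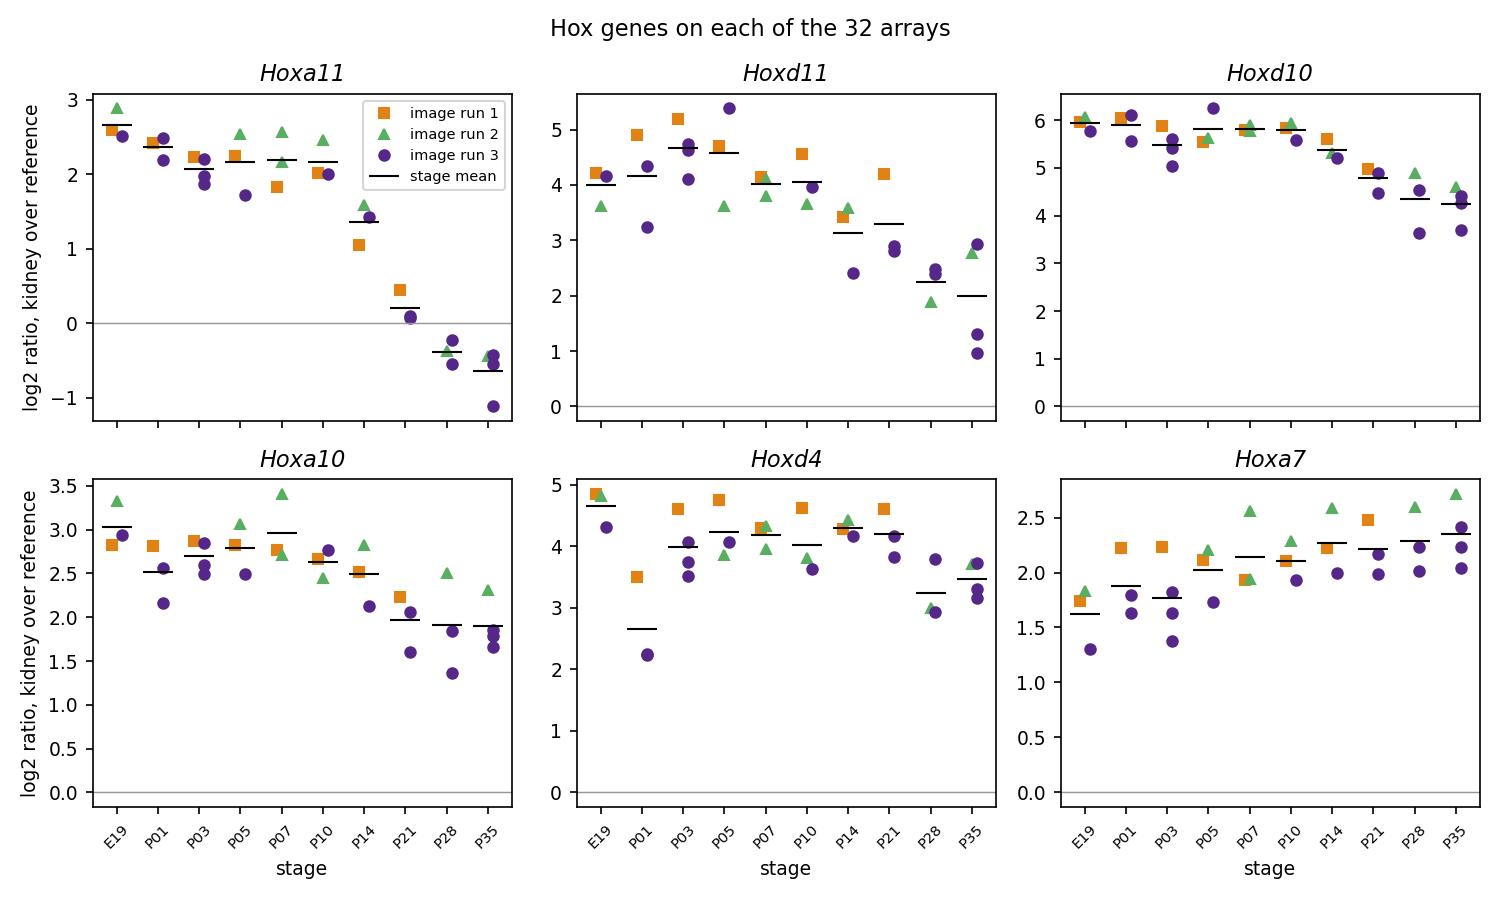
Log2 ratio of kidney over reference (vertical axis) by stage (horizontal axis) for 6 Hox genes, 1 symbol per array, shaped by image run, with stage means as black bars. Hoxa11 stays between 1.72 and 2.88 through P10 and lies between -1.12 and -0.43 at P35, Hoxd4 dips at P01, and Hoxa7 is higher at P35 than at E19.

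The moderated F test over the 10 stages, which asks for any difference between stages, was passed by 13 of 33 Hox genes, beside a background of 43.7% of 16336 genes. These were Hoxa2, Hoxa9, Hoxa10, Hoxa11, Hoxb2, Hoxb5, Hoxb7, Hoxc4, Hoxc9, Hoxd4, Hoxd8, Hoxd10 and Hoxd11. Hoxa11 had the smallest adjusted p, 6.99e-13. With image run as a block 19 passed, as did 58.3% of all genes. Those gained were Hoxa5, Hoxa6, Hoxa7, Hoxb3, Hoxb9 and Hoxc6. A difference between stages was thus no more frequent among Hox genes than the background share.

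**Figure D3:**
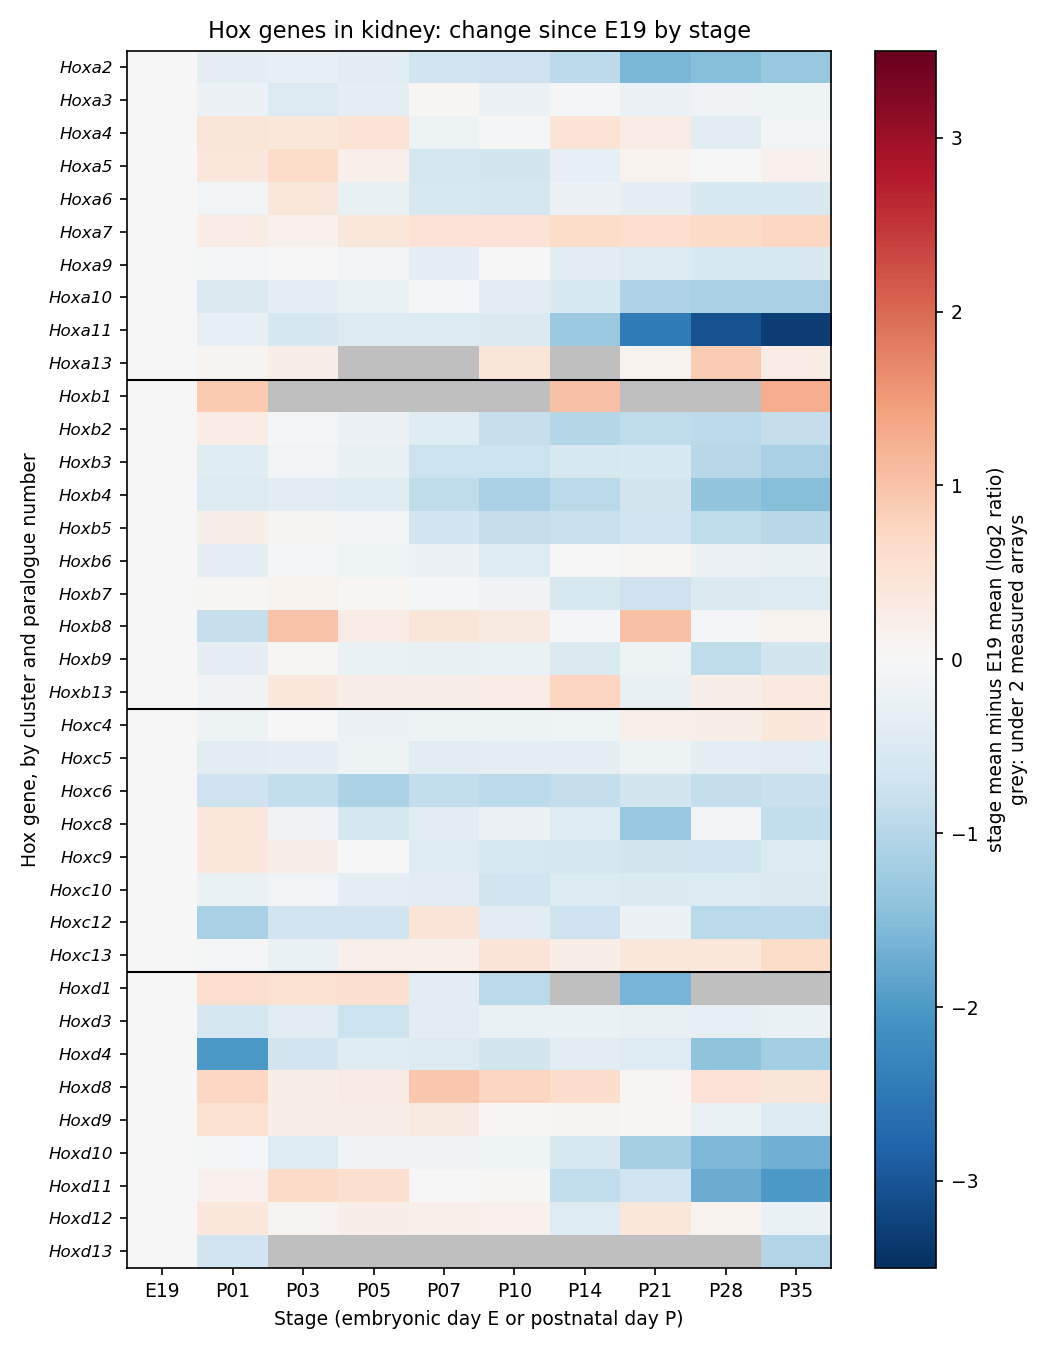
Stage mean minus E19 mean (colour, log2 ratio) of the 37 Hox genes (rows, by cluster and paralogue number) at the 10 stages (columns); grey marks under 2 measured arrays. The P35 column is deepest blue for Hoxa11, at -3.30, and most of its darkening lies after P10.

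Of the 4 shorter spans, that between the first and the third week held the most calls, among Hox genes as among all genes. Over all genes it held 2587 calls, beside 246 in P01 against E19, 1237 in P07 against P01 and 152 in P35 against P21. In P21 against P07, 6 of 34 Hox genes were lower and 0 higher, with 9.08% and 6.25% of 16881 genes in the background. At an unadjusted p under 0.05, 0 were higher as well. Hoxa11 changed by -1.98 (adjusted p = 1.06e-06), Hoxd10 by -1.04 (0.0107), Hoxa10 by -0.996 (0.0110), Hoxa2 by -0.90 (0.0248), Hoxd8 by -0.86 (0.0215) and Hoxb7 by -0.70 (0.0415). Of these calls, that of Hoxa11 was the only one kept with each of the 32 arrays left out in turn. The others were lost without 1 array (Hoxd10, P21 array 2) to 5 arrays (Hoxa2). Adjusted p then reached 0.0692 for Hoxd10, 0.0865 for Hoxa10, 0.0723 for Hoxa2, 0.168 for Hoxd8 and 0.278 for Hoxb7. P07 had no array from run 3 and P21 none from run 2. With image run as a block Hoxa11 changed by -1.72 (adjusted p = 1.75e-06), Hoxd10 by -0.83 (0.0343) and Hoxa10 by -0.65 (0.0374). Hoxa2 then changed by -1.12 (0.0013), Hoxd8 by -0.80 (0.0217) and Hoxb7 by -0.61 (0.0274).

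In the earlier spans few Hox genes passed, and the share of all genes that passed was low as well. In P01 against E19, which shares the E19 arrays with the comparison of P35, 1 of 37 was lower and 0 higher, with 0.606% and 0.842% of 16985 genes in the background. At an unadjusted p under 0.05, 1 Hox gene was higher, Hoxd8 at 0.74. The gene that passed was Hoxd4, with 3.49, 2.24 and 2.25 on the P01 arrays, against 4.85, 4.31 and 4.82 on the E19 arrays (-2.0 ± 0.34 SE, adjusted p = 0.0022). The P01 arrays all lay below the E19 arrays, but in a fit of those 2 stages alone the call was lost (adjusted p = 0.277), and within image run 3, where E19 has 1 array whose spread is assumed to be that of the other stages, the change was -2.07 (0.0535). In P07 against P01, 2 of 34 were lower and 1 higher, with 2.56% and 4.83% of 16738 genes in the background. Hoxb5 changed by -0.85 (adjusted p = 0.031) and Hoxc9 by -0.81 (0.0137), while Hoxd4 rose by 1.53 (0.0062), back to a stage mean of 4.19. The Hoxb5 call was lost with image run as a block (adjusted p = 0.072) and when any 1 of 4 arrays was left out (up to 0.153), and the Hoxc9 call without P07 array 1 (0.0668). With the block 2 further Hox genes passed, Hoxb2 at -0.64 (0.0439, against -0.66 and 0.115 without it) and Hoxb8 at 1.86 (0.0321, against 1.23 and 0.238).

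Of the markers of stroma and smooth muscle, 1 of each list was lower in P01 against E19, as Hoxd4 was, and none was higher by the test. Among all genes tested 0.606% were lower in that span. Of 8 skeletal muscle markers 2 were lower as well, Myh3 (-2.77) and Actn3 (-1.38). The stromal marker Lum had stage means of 3.17, 0.00 and 3.75 at E19, P01 and P07, and the smooth muscle marker Cnn1 2.31, 0.54 and 1.88. They were the 1 of 7 stromal and the 1 of 6 smooth muscle markers that were lower in P01 against E19, and the stromal marker Fibin had stage means of 2.66 at P01 and 1.73 at E19. Whether the dip of Hoxd4 goes with the amount of such tissue in the samples was not tested. Of the other group 4 genes, Hoxa4, Hoxb4 and Hoxc4 changed by 0.43, -0.49 and -0.19 over that span and did not pass.

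In P35 against P21, which shares the P35 arrays with the whole span, no Hox gene passed: 0 of 34 were lower and 0 higher by limma, against 0.395% and 0.487% of 17231 genes. At an unadjusted p under 0.05, 4 were lower (Hoxa11, Hoxd4, Hoxd10 and Hoxd11) and 0 higher. Hoxa11 came nearest, with -0.44, -0.43, -1.12 and -0.55 at P35, against 0.07, 0.09 and 0.45 at P21. Its change of -0.84 had an adjusted p of 0.058, and with image run as a block it was -0.91 (adjusted p = 0.0059). Hoxd11 changed by -1.31 over the same span without passing (adjusted p = 0.229).

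Of 5 nephron progenitor genes that Hox11 proteins work with, 3 had their calls in an earlier span than Hoxa11. In P07 against P01, Eya1 changed by -3.56 (adjusted p = 1.24e-06), Six2 by -3.30 (1.16e-05) and Gdnf by -2.27 (0.000346), 3 of 5 genes on the list. Among all genes tested 2.56% were lower in that span. Hoxa11 changed by -0.18 and Hoxd11 by -0.15 over that span, and neither passed. With image run as a block their changes were -0.44 (adjusted p = 0.183) and -0.19 (0.864). In P21 against P07, where Hoxa11 changed by -1.98, none of the 5 genes passed and their median was -0.13. Hoxa11 had stage means of 2.66, 2.36, 2.07, 2.17, 2.19, 2.16, 1.36, 0.21, -0.38 and -0.64 across the 10 stages, and Six2 had 2.92, 2.54, 2.05, 0.78, -0.76, -0.90, -0.78, -1.47, -1.39 and -1.24. The difference in timing between the genes was not itself tested. Over the whole span 4 of the 5 were lower (Six2 -4.16, Eya1 -3.88, Gdnf -2.34, Pax2 -1.17), beside 19.0% of all genes. Leaving out single arrays gave 3 to 4.

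**Figure D4:**
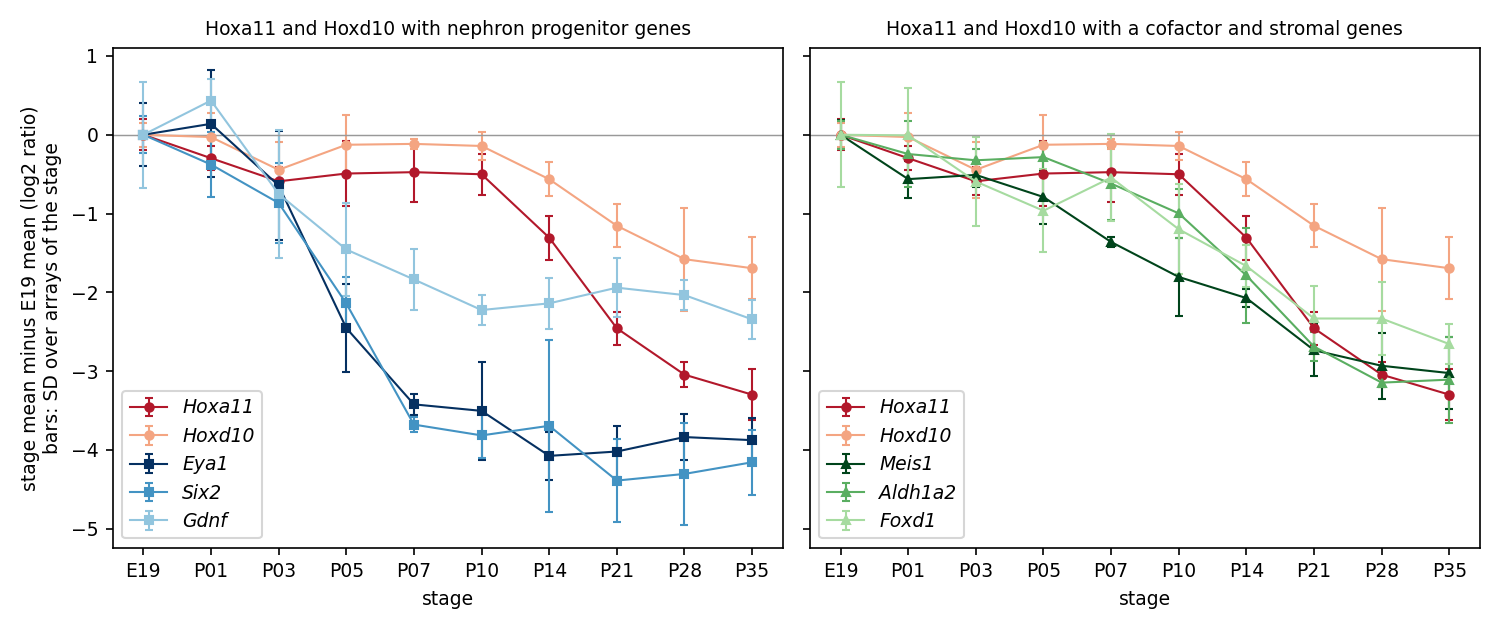
Stage mean minus E19 mean (vertical axis, log2 ratio, bars SD over the arrays of a stage) by stage (horizontal axis) for Hoxa11 and Hoxd10, beside Eya1, Six2 and Gdnf on the left and Meis1, Aldh1a2 and Foxd1 on the right. Six2 drops between P03 and P07. Hoxa11 lies below its E19 mean from P01 on and changes little between P03 and P10. Aldh1a2 and Hoxa11 both drop between P07 and P21.

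Stromal markers and Hox cofactors were also among the genes lower in P21 against P07, the span in which Hoxa11, Hoxa10 and Hoxd10 were lower. In P21 against P07, 4 of 7 markers of renal stromal progenitors were lower, beside 9.08% of 16881 genes. These were Foxd1 (-1.79, adjusted p = 0.0022), Fibin (-2.24, 0.000115), Lum (-3.31) and Dcn (-0.96). In ureteric bud tips 3 of 8 markers were lower, among them Wnt11 (-1.74, 0.0011), while none of 12 nephron progenitor markers was. Aldh1a2, the retinoic acid synthase of the stroma, changed by -2.07 (1.94e-05). It was the 1 lower gene of 16 in the retinoic acid pathway, whereas 3 were higher, Cyp26b1 (1.68), Rdh10 (1.62) and Aldh1a1 (0.91). Meis1, a TALE homeodomain protein that binds DNA with Hox proteins, changed by -1.37 (0.000556) and Pbx3, another such partner, by -0.81 (0.0232). They were the 2 of 8 tested TALE cofactors that were lower in that span, and none was higher. Some markers of the stromal and bud tip lists had already changed in P07 against P01. Fibin (-1.51), Etv4 (-2.46) and Sox9 (-1.44) were lower in that span, whereas Lum and Dcn had risen by 3.75 and 1.19. The part of each cell type in the Hox changes was not tested.

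The TALE cofactors as a list had 4 of 8 genes lower and 0 higher at P35 against E19, with a median of -1.31 against 0.06 for all genes. Among all genes 19.0% were lower and 21.2% higher. Meis1 had a mean of -0.87 at P35 and 2.15 at E19 (-3.02 ± 0.24 SE, adjusted p = 2.95e-10). Meis3, Meis2 and Pbx3 changed by -1.78, -1.77 and -1.53. With image run as a block 5 of 8 were lower, beside 23.0% of all genes. None of the 3 tested ParaHox genes, a sister family of the Hox genes, passed.

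The counts among the chromatin regulators of the clusters stand beside 19.0% lower and 21.2% higher among all genes. With image run as a block these shares were 23.0% and 26.6%. Nothing is called particular to these lists. Of 16 Polycomb genes, which keep Hox clusters silent, 5 were lower and 1 higher at P35 (7 and 3 with image run as a block). Ezh2, the methyltransferase of the complex, changed by -2.01 (adjusted p = 2.45e-10) and Cbx2 by -1.49, whereas Cbx7, an alternative chromodomain subunit, rose by 2.15 (3.4e-08). Of 9 trithorax genes, which keep Hox genes active, 2 were lower, Chd7 (-1.02) and Ash2l (-0.73). The trithorax count was 0 to 4 when single arrays were left out and 5 with image run as a block. In the retinoic acid pathway, which induces Hox genes in the embryo, 6 of 16 genes were lower and 4 higher. Aldh1a2 changed by -3.11 and Aldh1a3 by -2.88, and the retinol dehydrogenase gene Rdh10 rose by 1.75.

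Genes that flank the clusters had no common direction. Of 12 tested neighbours, 1 was lower (Skap1, -0.69) and 2 were higher (Hibadh, 1.88, and Skap2, 1.03, both beside the Hoxa cluster). The median of the 12 was 0.02. Among all genes 19.0% were lower and 21.2% higher. Of 3 noncoding transcripts within the clusters, Hoxaas3 (-1.77, adjusted p = 0.0013) and Hoxaas2 (-0.80, 0.030) were lower and Hoxd3os1 was higher (0.88, 0.000258). The arrays' probes for these transcripts lie among Hox genes, and whether they also read overlapping Hox transcripts was not tested.

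Several Hox genes differed between image runs. Hoxb4 had 4.03, 4.00, 3.63 and 3.65 on the run 1 arrays of E19, P01, P03 and P05, and the other arrays of those stages lay between 1.27 and 2.87. The run 1 minus run 3 difference was 1.51 for Hoxb4 (limma adjusted p = 5.93e-06), 1.09 for Hoxd9, 0.98 for Hoxb3, 0.75 for Hoxb6, 0.70 for Hoxc5, 0.68 for Hoxd4 and 0.65 for Hoxd11 (0.0419). It was -0.95 for Hoxa5, -0.70 for Hoxb9 and -0.44 for both Hoxa2 and Hoxb2. Hoxa11 (0.08), Hoxa10 (0.27) and Hoxd10 (0.26) did not pass between these runs, though between runs 2 and 3 Hoxa11 differed by 0.39 (adjusted p = 0.0148) and Hoxa10 by 0.52 (0.0040). The P35 minus E19 change of Hoxb4 was -1.50 without passing (adjusted p = 0.056), and with the block it was -0.98 and passed (0.031).

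**Figure D5:**
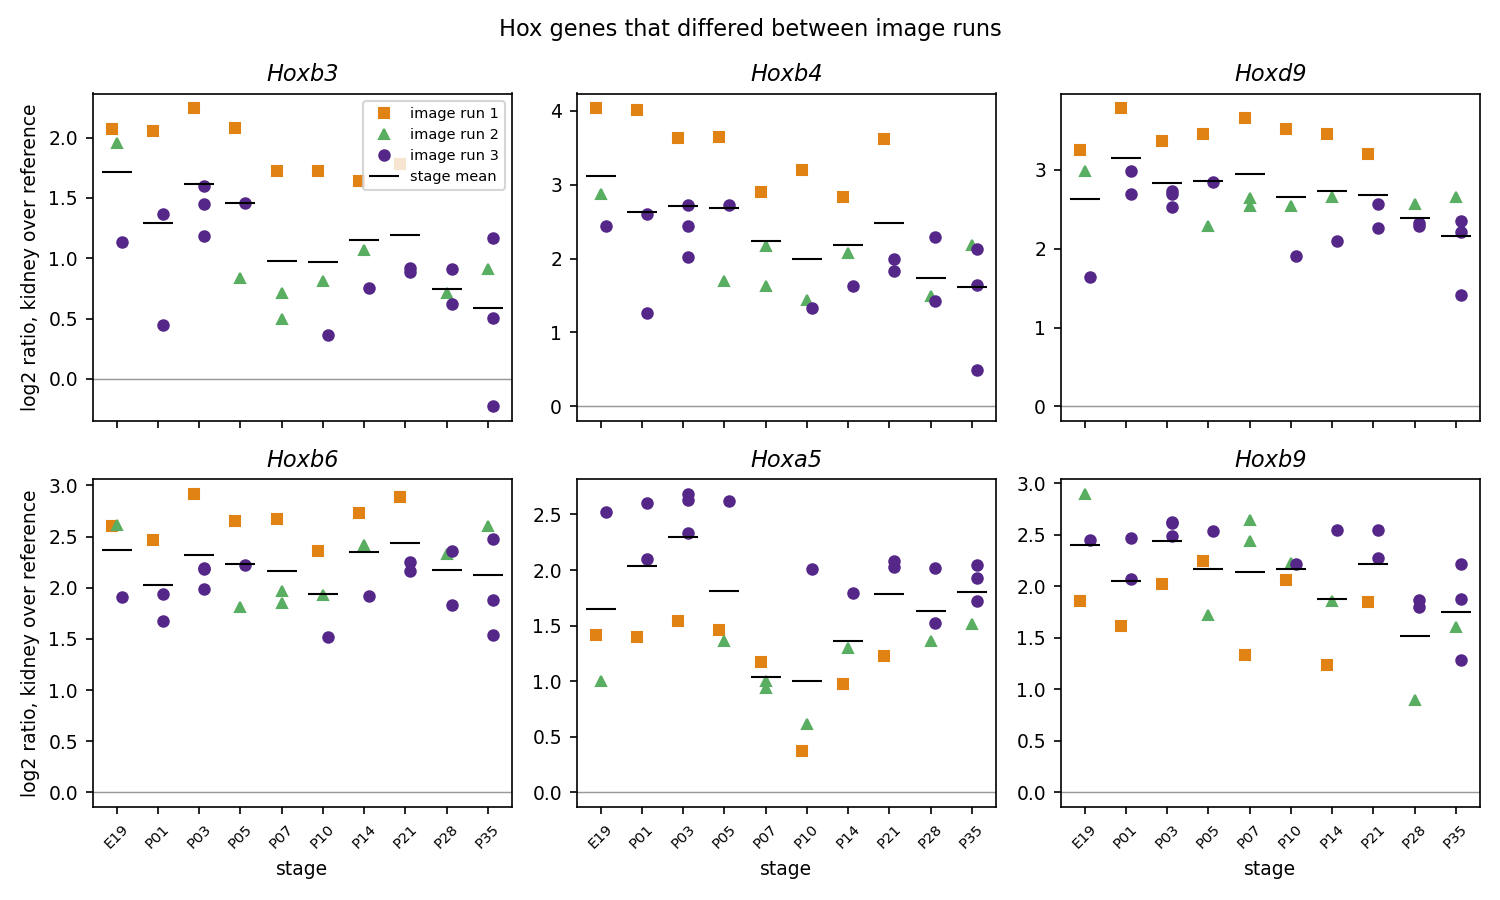
Log2 ratio of kidney over reference (vertical axis) by stage (horizontal axis) for 6 Hox genes that differed between image runs, 1 symbol per array, shaped by run, with stage means as black bars. Orange squares of run 1 lie high in Hoxb3, Hoxb4, Hoxd9 and Hoxb6, and low in Hoxa5 and Hoxb9.

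A comparison within image run 3 alone, with 3 P35 arrays and 1 E19 array, was chosen after seeing the data. The fit held the 16 arrays of run 3 from 9 stages, and the lone E19 array is assumed to vary like the other stages. The changes there were -3.21 for Hoxa11, -1.65 for Hoxd10 and -2.44 for Hoxd11. Those of Hoxa9, Hoxb2, Hoxb3, Hoxc9 and Hoxd4 kept their sign but did not pass. No such fit was made for run 2, in which P35 and E19 had 1 array each, and run 1 held no P35 array.

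Where a gene had several probes, they did not always match. Of the 11 genes with more than 1 probe, the probes of Hoxb6 changed by -0.90 (adjusted p = 0.045 over all probes) and 0.40 (0.340) at P35 against E19. Those of Hoxa3 changed by -0.57, 0.27 and -1.19, and those of Hoxa4 by -0.56 and 0.34, none of them passing. Hoxa11, Hoxd10, Hoxd11, Hoxa10 and Hoxa2 are each read by 1 probe, so no second probe bears on the largest falls.

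Markers of other tissues differed between P35 and E19 as well. Their counts stand beside 19.0% lower and 21.2% higher among all genes, and nothing is called particular to the urothelial, collecting duct or adrenal lists. The adipose markers had array medians of 1.73 to 5.53 at P35 and 0.01 to 0.29 at E19, with 5 of 6 higher and 1 (Fabp4) lower, and those of skeletal muscle -2.68 to -1.91 at P35 and -1.35 to 0.31 at E19, with 5 of 8 lower. Smooth muscle markers had array medians of -1.24 to 0.12 at P35 and -0.23 to 0.76 at E19, with 3 of 6 lower. Nephron progenitor markers had 0.39 to 0.67 at P35 and 2.86 to 3.40 at E19 (8 of 12 lower), and stromal progenitor markers -1.39 to -0.73 and -0.13 to 0.74 at those stages (6 of 7 lower). Ureteric bud tip markers were lower in 5 of 9 and urothelial markers in 2 of 6. Of collecting duct markers 2 of 10 were lower and 1 higher, and of 4 tested adrenal markers 1 was lower and 1 higher. With the adipose median as a covariate, 9 Hox genes were lower and 1 higher, beside 15.3% and 16.3% of all genes, and Hoxa11 changed by -3.19. Hoxb3, Hoxc6 and Hoxc9 then missed the threshold. The adipose medians of the P35 and E19 arrays did not overlap. The covariate fit thus leans on the spread within stages and cannot fully separate stage from adipose signal. The part of the other tissues in the Hox changes was not tested.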

How the data were processed

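Total RNA of mouse kidney was compared with a reference RNA on 32 two-colour arrays. The deposited values carry no stated unit. They run between -3.25 and 4.0 with array medians near 0 and were read as the log10 ratio of Cy5 over Cy3, which are kidney and reference per the labels. How the authors corrected background and normalized is not given in the sources used, so each change is on the deposited scale. A factor of 3.32 turned them into log2 ratios, and exact zeros (10.8% to 23.1% of values per array) were left out as not measured.

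Probes were named through the platform annotation, in which 33653 of 45220 probes had 1 symbol, 56 had several and 11511 were not listed. Probes measured on all 32 arrays were averaged per gene, and a gene without such a probe took the one measured most often. limma 3.58.1 (R 4.3.3) was fitted with 1 mean per stage over all 32 arrays, with p-values adjusted by Benjamini-Hochberg over all genes measured on at least 2 arrays of the stages compared, and a threshold of 0.05. The fit was tested on simulated data. The number of arrays limits the precision, and arrays of a stage correlated at 0.873 or above. Figures were drawn with matplotlib 3.10.9.

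Every Hox gene was named or counted. Single-array values were given for up to 12 members with the largest changes past the threshold, and for members that differed in direction from their paralogues. Single-array values of Hoxb4, Hoxd1 and Hoxd13, and of Hoxd4 and Hoxa11 beyond P35 and E19, were added after their values were seen. In the other lists, genes past the threshold in P35 against E19 were named, up to 6 a list. The members and lists were chosen with earlier results of these data known. Alternatives covered the image run, the zeros, the probe rule, the normalization, weights, the prior variance, an adipose covariate, the stages fitted and single arrays. Array numbers follow accession order and pair nothing.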

Additional observations from a re-analysis of the deposited data

Results flagged for a closer look

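Array 2 of P03, which belongs to image run 1 while the other 3 arrays of that stage belong to run 3, stood apart in 3 Hox genes. Hoxa2 had a log2 ratio of -0.19 on it, Hoxb2 had 1.76 and Hoxc13 had -4.43, each lower than the other P03 arrays by more than Dixon's test allows at the 95% level. Chance marks about 1 in 20 groups in this way, and these were 3 of the 67 groups of 4 arrays examined, all at P03. Between runs 1 and 3 over all stages, Hoxa2 and Hoxb2 differed by -0.44 each, and Hoxc13 by -0.0037 without passing (adjusted p = 0.994). Whether the image run accounts for the 3 values was not tested.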

How the results depend on the processing

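In P35 against E19 the calls of Hoxa11, Hoxd11, Hoxd10, Hoxa2 and Hoxa10 were kept under every alternative, single arrays left out included, and that of Hoxb5 under all but the 2-fold limit. The count of lower Hox genes (12) was 19 with array weights and 7 when a change of at least 2-fold was also required, and 10 to 14 without single arrays. The count of higher genes (2) was 1 with image run as a block, the adipose covariate, zeros kept as ratios, genes measured on all 32 arrays, the plain mean of probes, the most variable probe, array medians subtracted, run 3 alone (chosen after seeing the data) or the 2-fold limit, 0 after quantile normalization, and 1 to 3 without single arrays. The F test count (13) was 26 with array weights and 11 to 14 without single arrays. In P01 against E19, lower genes (1) numbered 8 with weights, 0 with only the stages compared and 0 within run 3, and 1 without any single array; higher genes numbered 3 with weights. In P07 against P01, lower genes (2) numbered 4 with weights and 0 with the adipose covariate, only the stages compared or the 2-fold limit, and 0 to 2 without single arrays; higher genes (1) numbered 2 with the block and 0 with only the stages compared. In P21 against P07, lower genes (6) numbered 3 with only the stages compared and 2 with the 2-fold limit, and 2 to 6 without single arrays. In P35 against P21, lower genes numbered 1 with the block or weights, and 0 to 1 without single arrays. Calls among Hox probes numbered 22 with weights, 7 with the 2-fold limit and 9 to 15 without single arrays, and calls over all lists 63 to 75. Over all genes, weights gave 12370 calls in the F test against 7137, and 2847 against 246 in P01 against E19, where the block gave 681, quantile normalization 380, run 3 alone 80 and only the stages compared 0. In P07 against P01 the 1237 calls became 2014 with weights, 523 with the adipose covariate and 142 with only the stages compared. In P21 against P07 the 2587 calls became 1636 with only the stages compared. In P35 against P21 the 152 calls became 1185 with weights, 380 with the block, 29 within run 3 and 4 with only the stages compared. Signs turned in P35 against E19 for genes that passed in neither case: with the block, Hoxa13 (-0.12), Hoxa5 (-0.23), Hoxb6 (0.0287) and Hoxb8 (-0.17); with the adipose covariate, Hoxa13 (-0.17), Hoxc5 (0.0012) and Hoxd12 (0.0081); with the plain mean, Hoxa13 (-0.018); with weights, Hoxa4 (0.0717); after quantile normalization, Hoxa5 (-0.16) and Hoxb8 (-0.16). Within run 3 they turned for Hoxa3 (0.0946), Hoxa5 (-0.63), Hoxb13 (-0.23), Hoxb6 (0.0577), Hoxc10 (0.16), Hoxc5 (0.14), Hoxc8 (0.0321) and Hoxd9 (0.35). Without single arrays Hoxa4 ranged between -0.25 and 0.17, Hoxa5 between -0.17 and 0.59 and Hoxb8 between -0.17 and 0.33. The cause of these shifts was not tested. No paired analysis was possible because the array numbers were given in accession order and tie no array of one stage to an array of another.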
